A study of Homo sapiens with 12 samples.

Results

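The cytosolic ribosomal protein genes described here were the protein-coding genes named RPL or RPS with a number, with or without a final A, X or L, together with RPLP0, RPLP1, RPLP2 and RPSA, that averaged at least 1 CPM (counts scaled to the same library total) over the RNA-seq libraries. There were 79 such genes, 47 of the large subunit and 32 of the small subunit, among 12219 protein-coding genes at that level and 58302 gene identifiers in the count table. A further 2 genes met the symbol rule but not the level. RPL10L, a paralog of RPL10 known from testis, had 0 counts in every library, and RPL3L, a paralog of RPL3 known from muscle, averaged 0.189 CPM. The genes just above the limit were RPS10, at 1.36 CPM, and RPL17, at 1.41 CPM.

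RNA-seq was performed on 4 libraries of oral squamous cell carcinoma (OSCC) cells, 2 treated with 100 nM rapamycin and 2 untreated controls, numbered 1 and 2 within each treatment. MeRIP-seq, in which RNA fragments carrying N6-methyladenosine (m6A) are pulled down with an antibody and sequenced beside the input, was performed on the established OSCC lines HSC3 and CAL33 with 100 nM rapamycin for 3 days or without it, with 1 pulled-down library and 1 input for each line and treatment. For RNA-seq, the sample labels place both rapamycin libraries in HSC3 and both controls in CAL33, so that by label the drug and the cell line cannot be told apart. In the MeRIP-seq labels, number 1 is HSC3 and number 2 is CAL33 in each treatment. The RNA-seq libraries of the same number resembled each other most, with r between 0.953 and 0.963 for log2 CPM over the 15826 genes tested, against 0.717 to 0.769 for the other library pairs. No cell line is therefore assigned to the RNA-seq libraries below, and rapamycin was compared with control within each number. The labels do not say whether the libraries came from separate cultures, so whether they are independent replicates is not known. The numbers differed widely, with 37.3% of the genes tested apart between them at an adjusted p under 0.05 in edgeR's test. In the paired fit, the p-values measure the spread left after treatment and number, estimated in part from all genes. That spread is how far the numbered pairs disagreed on the difference between treatments.

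Each library held between 18492273 and 23763098 counts. The 79 genes took 4.18% and 5.08% of the counts in the rapamycin libraries and 3.82% and 3.81% in the controls. Of 8 squamous epithelium markers, 6 reached at least 1 CPM in every library. The summed level of the leukocyte markers was at most 0.541 CPM, with PTPRC at 0 in all 4 libraries. Fibroblast markers summed to between 8.75 and 48.0 CPM, with DCN and COL1A2 at 0 in every library. Endothelial markers summed to between 1.46 and 44.1 CPM, most of it from CDH5 in the libraries numbered 2.

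Ribosomal proteins form the large and small ribosomal subunits together with the ribosomal RNAs, and their mRNAs are among the most abundant in growing cells. Most of these mRNAs begin with a terminal oligopyrimidine (TOP) tract, a C at the cap followed by a run of C and U. Rapamycin inhibits mTOR complex 1, and TOP mRNAs are the class whose translation is known to depend most on that complex, through the 4E-BP proteins and the cap-binding protein LARP1. RNA-seq measures how much of each mRNA is present, not how well it is translated.

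The gene starts are shown first, since the TOP tract is what most of these genes share that the symbol rule did not use. RefSeq start windows (GRCh38.p14) were matched for 63 of the 79 genes, with 78 listed starts. Each window below runs from 10 bases before the annotated start through the 20 bases from it, 5′ to 3′ on the gene's strand, and capitals mark a C at the first transcribed base with the unbroken run of C and T that follows it, where that run is at least 5 bases long.
RPL13A (chr19:49487598-49487627, plus strand): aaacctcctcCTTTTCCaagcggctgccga
RPS18 (chr6:33272065-33272094, plus strand): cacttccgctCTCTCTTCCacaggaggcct
RPL13 (chr16:89560672-89560701, plus strand): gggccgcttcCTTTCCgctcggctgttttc
RPLP0 (chr12:120201092-120201121, minus strand): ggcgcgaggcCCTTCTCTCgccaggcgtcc
RPS6 (chr9:19380217-19380246, minus strand): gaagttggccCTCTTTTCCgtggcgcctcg
RPS27 (chr1:153990752-153990781, plus strand): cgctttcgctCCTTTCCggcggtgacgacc
RPL28 (chr19:55385922-55385951, plus strand): cctcgccttcCTCTTTCCgtctcaggtcgc
RPL26 (chr17:8383174-8383203, minus strand): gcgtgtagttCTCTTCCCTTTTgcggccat
RPL3 (chr22:39319604-39319633, minus strand): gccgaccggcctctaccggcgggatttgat
RPS28 (chr19:8321486-8321515, plus strand): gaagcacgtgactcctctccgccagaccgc
RPS29 (chr14:49598691-49598720, minus strand): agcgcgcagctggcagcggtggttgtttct
RPS27L (chr15:63157458-63157487, minus strand): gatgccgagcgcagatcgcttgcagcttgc
The first 5 belong to genes with high levels and positive fold changes or to named proteins of the ribosomal stalk and of S6 kinase signalling. RPS27, RPL28, RPL26, RPL3, RPS28, RPS29 and RPS27L are shown because results below turn on them.

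Of the 63 matched genes, 46 (73.0%) had a C followed by at least 4 pyrimidines exactly at a listed start, read on the gene's own strand only, against 7.46% of the 10057 matched coding genes of at least 1 CPM and 5.14% of all 27305 genes in the promoter table. When the tract could begin up to 5 bases to either side of the start, 53 of the 63 (84.1%) had one, against 29.6% of the coding genes. RPL3 and RPS28 had a tract only within that wider range, and RPS27L and RPS29 had none in it. These letters describe the annotated start, and the start used in these cells was not measured.

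No ribosomal protein gene passed the test between rapamycin and control. In edgeR's paired quasi-likelihood test at an adjusted p under 0.05, 0 of 79 were called higher and 0 were called lower, while 4.65% of all 15826 genes tested were called higher and 3.50% lower. The lowest adjusted p among the members was 0.123. At an unadjusted p under 0.05, 4 members remained, or 5.06%, against 23.6% of all genes. DESeq2 with the same pairing, which gave 2 members no adjusted p, called 1 member higher, RPL3, and 0 lower, where it called 3.63% of all genes with an adjusted p higher. Without the pairing by number (no replicate block), edgeR called 0 members, and every member had an adjusted p of 0.9997. The number of calls over all genes in that fit is not reported here. In bulk RNA, less RNA per cell and fewer cells of a type cannot be told apart.

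Most fold changes were above 0, though small. The fitted log2 fold change was above 0 for 66 of 79 members (83.5%), against 8391 of the 15826 genes tested, and its median was 0.21, against 0.05 over all genes. The large subunit had 38 of 47 genes above 0 with a median of 0.24, and the small subunit had 28 of 32 above 0 with a median of 0.14. The members spanned -0.84 to 0.65, a narrow range beside -5.46 to 6.80 over all genes. The 95% intervals were wide enough that 10 members could have risen more than 2-fold and 5 could have fallen more than 2-fold, that is, by more than 1 on the log2 scale.

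The differences were larger in the pair numbered 2. Between rapamycin and control in pair 1 the median log2 difference over members was 0.04 and 43 of 79 were above 0, and in pair 2 the median was 0.40 and 68 of 79 were above 0. Over all genes the medians were 0.00 in pair 1 and 0.03 in pair 2. In 68 of 79 members (86.1%) the difference was larger in pair 2 than in pair 1, which held for 50.7% of all genes. Both pairs moved up in 39 members and both moved down in 7, where 34.6% of all genes moved up in both and 31.8% moved down in both. The remaining 33 members moved in opposite directions in the pairs. With 1 library per treatment and number, the difference between the pairs has no test. The summed level of the 79 genes, in CPM scaled for library composition by edgeR's TMM method as all levels below, was 40604 and 52201 CPM with rapamycin and 38168 and 38196 CPM in the controls. Both rapamycin libraries were above both controls, with a log2 ratio of 0.09 in pair 1 and 0.45 in pair 2. The exact two-sided permutation test gave p = 0.333, the smallest that 2 libraries against 2 can give.

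**Figure D1:**
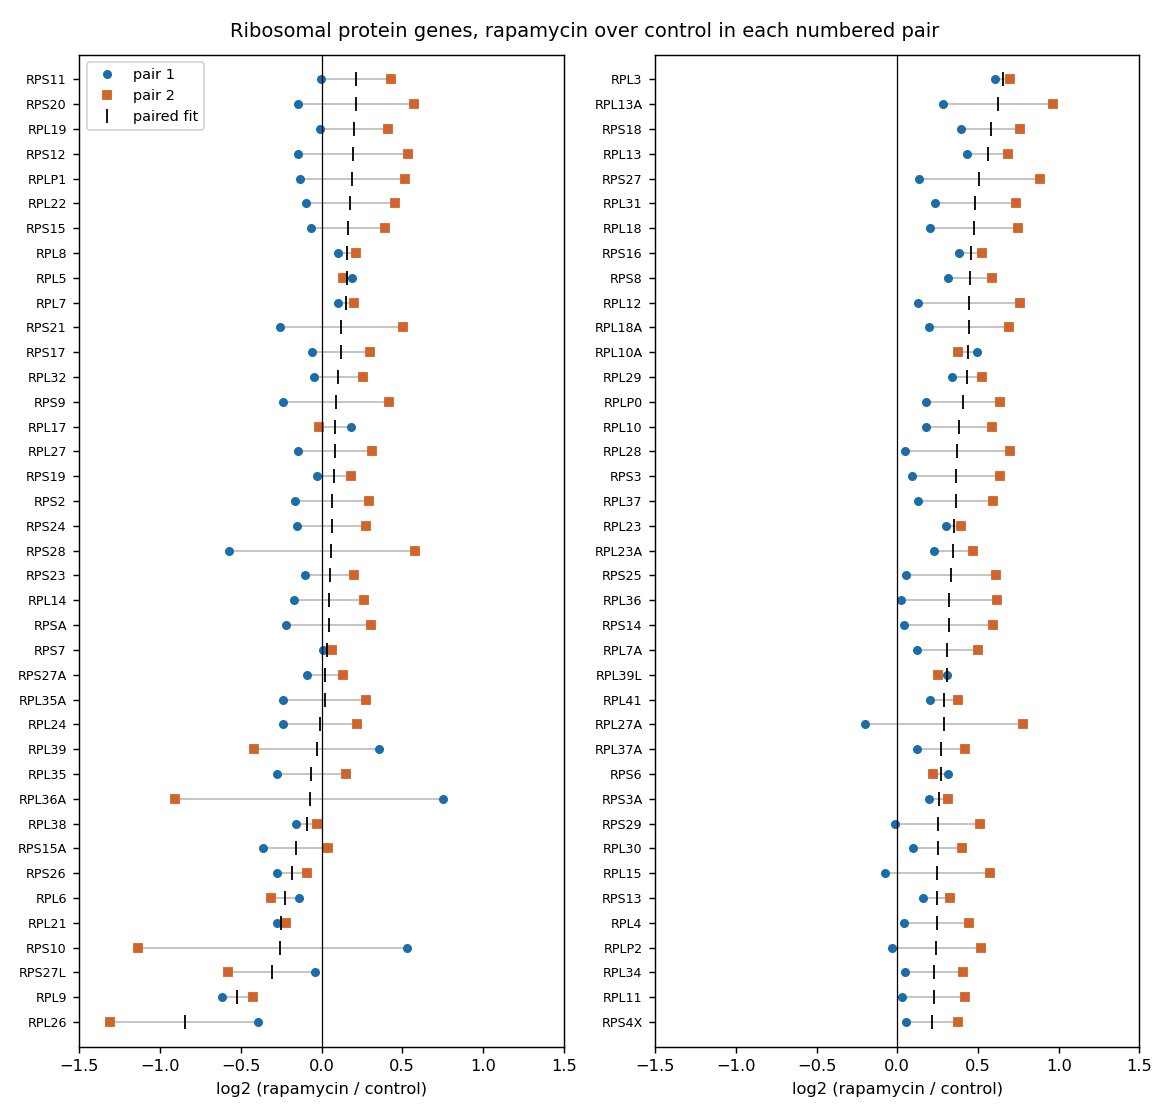
Log2 ratio of rapamycin over control for 78 of the 79 ribosomal protein genes (TMM-scaled CPM), ordered by the paired fit, from the lowest at the bottom left to the highest at the top right. Circles are the pair numbered 1, squares the pair numbered 2 and ticks the paired fit. In 67 of them the square lies to the right of the circle.

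The members with an unadjusted p under 0.05 were RPL3, RPL13A, RPS18 and RPL13, named here after their values were seen. RPL3, a core protein near the peptidyl transferase centre, stood at 1599.5 and 2330.3 CPM with rapamycin and 1051 and 1434 CPM in the controls. Its log2 fold change was 0.65 ± 0.26 (SE), with a 95% interval of 0.11 to 1.19 and an adjusted p of 0.123 in edgeR's test. It was the only member past 0.05 in DESeq2, at a log2 fold change of 0.67 and an adjusted p of 0.0382. The level was higher with rapamycin in both pairs, and the treatments did not overlap.

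RPL13A, a large-subunit protein also known for a role in silencing inflammatory mRNAs, stood at 1298 and 1421 CPM with rapamycin and 1067 and 728 CPM in the controls. RPS18 of the small-subunit head stood at 1003 and 1051 CPM with rapamycin and 762 and 619.6 CPM in the controls. RPL13 stood at 1299 and 1342 CPM with rapamycin and 963 and 834 CPM in the controls. In all 3 genes both rapamycin libraries were above both controls, at log2 fold changes of 0.62, 0.58 and 0.56 and adjusted p of 0.157, 0.174 and 0.192 in edgeR's test. Both rapamycin libraries lay above both controls in 16 members in all, where 15.0% of all genes did so, and below both controls in 4 members, where 16.5% of all genes did so.

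Those 4 members were RPL26, RPL9, RPL21 and RPL6, which held the lower end of the range with RPS27L and RPS10. RPL26, a large-subunit protein also known to bind p53 mRNA, stood at 10.1 and 4.22 CPM with rapamycin and 13.3 and 10.5 CPM in the controls. RPL9 stood at 21.9 and 25.6 CPM with rapamycin and 33.6 and 34.5 CPM in the controls. RPL6 was the one abundant gene of the 4, at 652 and 602 CPM with rapamycin and 719.9 and 749 CPM in the controls. Their log2 fold changes were -0.84 ± 0.42, -0.52 ± 0.30 and -0.23 ± 0.26 (SE). The adjusted p were 0.219, 0.301 and 0.634 in edgeR's test, and none passed. RPL21 is described with the pseudogenes below.

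The 5 genes with most counts were RPS2, RPL8, RPLP0, RPL4 and RPL3. These levels are in CPM and not per length, so they do not order the genes by transcript number. RPS2, near the mRNA entry channel of the small subunit, stood at 1709 and 4435 CPM with rapamycin and 1916 and 3615 CPM in the controls, with overlap between the treatments and a log2 fold change of 0.06 ± 0.27 (SE). RPL8 stood at 1773 and 2209.8 CPM with rapamycin and 1649 and 1902 CPM in the controls and differed by 0.16 ± 0.26 on the log2 scale. RPL4 stood at 1278 and 2564 CPM with rapamycin and 1242 and 1884 CPM in the controls and differed by 0.24 ± 0.27. All 3 intervals held 0.

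Among the stalk proteins, which recruit translation factors to the ribosome, RPLP0 anchors the stalk and RPLP1 and RPLP2 bind to it. RPLP0 stood at 1801 and 2392 CPM with rapamycin and 1589 and 1537 CPM in the controls, without overlap, and its log2 fold change was 0.41 ± 0.27 (SE, interval -0.14 to 0.96). RPLP1 stood at 277 and 533 CPM with rapamycin and 304 and 372 CPM in the controls, and RPLP2 at 318 and 369.9 CPM with rapamycin and 325 and 258 CPM in the controls. Both of these overlapped, below the control in pair 1 and above it in pair 2, at 0.19 and 0.24 in the paired fit.

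RPS6, the substrate of S6 kinase downstream of mTOR complex 1, stood at 753 and 1078 CPM with rapamycin and 605 and 926 CPM in the controls. It was above its control by 0.32 in pair 1 and 0.22 in pair 2 on the log2 scale, while the treatments overlapped across the numbers, and the fit gave 0.27 ± 0.26 (SE, adjusted p = 0.568 in edgeR's test). RPSA, the laminin receptor protein of the small subunit, stood at 929 and 986 CPM with rapamycin and 1083 and 796 CPM in the controls and differed by 0.04 ± 0.26. RPS27A, which is made as a fusion with ubiquitin, stood at 317 and 350.1 CPM with rapamycin and 337 and 319.6 CPM in the controls and differed by 0.02 ± 0.25. RPS4X, the X-linked form of RPS4, stood at 976 and 1074 CPM with rapamycin and 941 and 827 CPM in the controls, without overlap, and differed by 0.21 ± 0.26. None of these 4 passed the test.

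RPL5 and RPL11 bind the 5S ribosomal RNA and, outside the ribosome, the p53 ligase MDM2. RPL5 stood at 1098 and 708 CPM with rapamycin and 965 and 646 CPM in the controls, and RPL11 at 454 and 485 CPM with rapamycin and 445 and 362 CPM in the controls. RPL5 overlapped between treatments and followed the number, higher in number 1, while RPL11 did not overlap. Their log2 fold changes were 0.16 ± 0.26 and 0.23 ± 0.26 (SE), with intervals of -0.37 to 0.69 and -0.30 to 0.75. Of 6 genes of the p53 pathway, 2 were called higher and 0 lower, where 4.65% of all genes were called higher and 3.50% lower. CDKN1A, the p21 cell cycle inhibitor, rose by 1.54 ± 0.26 (SE) on the log2 scale, at 357 and 49.7 CPM with rapamycin and 142 and 14.8 CPM in the controls. GDF15, a stress-induced cytokine, rose by 2.70 ± 0.28, at 47.0 and 239 CPM with rapamycin and 8.12 and 32.9 CPM in the controls. MDM2 itself differed by -0.44 ± 0.28 and did not pass the test.

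Among the remaining genes named by role, RPL10, among the last proteins to join the large subunit, stood at 1558 and 1214 CPM with rapamycin and 1377 and 809 CPM in the controls with a log2 fold change of 0.38 ± 0.26 (SE). RPL41, the shortest ribosomal protein, stood at 104 and 118 CPM with rapamycin and 89.9 and 91.1 CPM in the controls with 0.29 ± 0.25. RPL36A stood at 13.2 and 6.08 CPM with rapamycin and 7.84 and 11.4 CPM in the controls, with opposite differences of 0.75 in pair 1 and -0.91 in pair 2. RPL39, at the tunnel exit, stood at 14.9 and 9.97 CPM with rapamycin and 11.7 and 13.3 CPM in the controls, likewise opposite at 0.35 and -0.42. RPL17, at the limit of the level rule, held 25 and 29 reads with rapamycin and 25 and 38 in the controls. RPS10 stood at 1.94 and 0.657 CPM with rapamycin and 1.34 and 1.48 CPM in the controls, with 0.53 in pair 1 and -1.14 in pair 2.

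Gene groups around the ribosome were compared with the members by their counts of calls and medians. All values in the comparison come from the same paired fit, and no list was tested as a set. The paralogs outside the symbol rule, RPL7L1, RPL22L1, RPL26L1 and RPL36AL, had 0 of 4 called, all 4 were below 0, and the median was -0.43. Of 13 other TOP mRNAs, 12 were tested and 0 were called, with a median of 0.22, and EEF1G, the gene not tested, had 0 counts in every library. EEF1A1, the main elongation factor, stood at 7999 and 9854 CPM with rapamycin and 6025 and 5693 CPM in the controls, and TPT1 at 1622 and 2682 CPM with rapamycin and 1113 and 1503 CPM in the controls. Both lay above the controls without overlap, at 0.60 and 0.69, with adjusted p of 0.176 and 0.106 in edgeR's test. The list went both ways. Of the 12 tested, 8 had a log2 fold change above 0. Both rapamycin libraries lay above both controls in 3 and below both in 3, where 15.0% and 16.5% of all genes did so. NPM1 was among the 3 below, at -0.73 (adjusted p = 0.0811 in edgeR's test). The TOP mRNAs also had the larger difference in pair 2, with medians of -0.12 in pair 1 and 0.62 in pair 2.

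Some of the genes that make ribosomes fell. Of 15 ribosome synthesis genes, 6 were called lower and 1 higher, where 3.50% of all genes were called lower and 4.65% higher. The list was picked by hand with earlier results of these data known, and is not a complete family. In 14 the log2 fold change was below 0, with a median of -0.99. The medians were -0.50 in pair 1 and -1.38 in pair 2. GRWD1, a chaperone of RPL3, stood at 80.9 and 30.3 CPM with rapamycin and 164 and 108 CPM in the controls and fell, at -1.42 ± 0.27 (SE, adjusted p = 0.0026 in edgeR's test). RRS1, needed to load the 5S particle with RPL5 and RPL11, stood at 42.0 and 18.4 CPM with rapamycin and 90.4 and 68.3 CPM in the controls and fell, at -1.49 ± 0.29 (adjusted p = 0.00276). NCL, which encodes nucleolin, stood at 1129 and 621 CPM with rapamycin and 1838 and 1944 CPM in the controls and fell, at -1.17 ± 0.28 (adjusted p = 0.0122). HEATR3, BYSL and DKC1 fell too, and MYC rose, at 1.18 ± 0.28. In each of these 7 genes the treatments did not overlap.

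Mitochondrial ribosomal proteins, encoded in the nucleus but forming the ribosome of the mitochondrion, had 3 of 79 called lower, a share near the 3.50% of all genes called lower, and 0 called higher. Of the 79, 11 had a log2 fold change above 0. Both rapamycin libraries lay below both controls in 44 and above both in 1, where 16.5% and 15.0% of all genes did so. Both pairs moved down in 61 and up in 7, where 31.8% and 34.6% of all genes did so. The 3 called lower were MRPL27, MRPL50 and MRPS12, at log2 fold changes of -1.28, -1.07 and -1.07, and the median of the list was -0.51. Among 7 genes of mTOR complex 1, the S6 kinases and the regulators of TOP translation, the median was -0.23 and 1 had a log2 fold change above 0. RPTOR was the lowest, at -0.64, and did not pass the test. EIF4EBP1, which encodes 4E-BP1, was the 1 gene above 0 and the 1 called, where 4.65% of all genes were called higher. It rose by 0.93 ± 0.26 (SE), at 206 and 155 CPM with rapamycin and 97.4 and 90.2 CPM in the controls. LARP1 differed by -0.21 ± 0.25 and MTOR by -0.22 ± 0.26, and neither passed the test. The direct difference between any of these lists and the members was not tested.

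**Figure D2:**
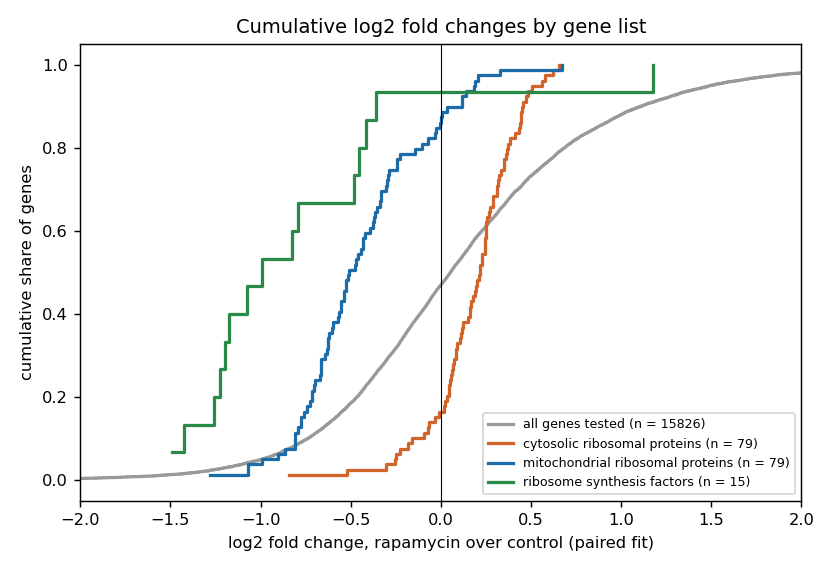
Cumulative share of genes (vertical axis) at or below each log2 fold change of rapamycin over control (horizontal axis, cut at -2 and 2), for the 79 cytosolic ribosomal protein genes, 79 mitochondrial ribosomal protein genes, 15 ribosome synthesis genes and all 15826 genes tested. The cytosolic curve is steep and crosses its middle at 0.21, while the mitochondrial and synthesis curves cross theirs at -0.51 and -0.99.

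More members passed the test between the numbers than between the treatments. In the same edgeR fit, 14 members were higher and 6 lower in number 2 than in number 1 at an adjusted p under 0.05, together 25.3%, where 17.0% of all genes were higher and 20.2% lower. The median absolute log2 difference of the members was 0.41 between numbers and 0.24 between treatments, and over all genes it was 0.67 and 0.45. With no treatment term in the fit, 4 of the 20 were called, namely RPL39L, RPS28, RPS27 and RPL15. With upper-quartile scaling the split was 12 higher and 10 lower. Squamous markers differed between the numbers as well, in both directions. Of the 8 markers, 5 (KRT17, KRT5, TP63, KRT6A and KRT14) were higher in both libraries of number 2, EPCAM and CDH1 were lower in both, and SFN overlapped. The list summed to 904 and 1082 CPM in number 1 and 3325 and 4764 CPM in number 2. KRT5 and KRT6A also differed between the treatments within number 2, at 317 and 5.22 CPM with rapamycin and 1696 and 372 CPM in the control. The part of these differences in those of the ribosomal proteins was not tested.

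RPL39L, the paralog of RPL39 that is best known from testis and tumour cells, had 190 and 175 reads in number 1 and 1 read in each library of number 2. Scaled for library size, the summed reads of number 1 exceeded those of number 2 by a ratio of 188 (exact 95% interval 51.7 to 1558, counting error only). RPL39 itself did not follow, at 14.9 and 11.7 CPM in number 1 and 9.97 and 13.3 CPM in number 2. Within number 1, where RPL39L could be measured, it stood at 9.98 CPM with rapamycin and 8.07 CPM in the control.

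RPS28, a small protein at the mRNA exit of the small subunit, stood at 4.20 and 6.27 CPM in number 1 and 108 and 71.9 CPM in number 2. Its log2 difference between numbers was 4.08 ± 0.35 (SE, adjusted p = 9.48e-10 in edgeR's test), the highest of the members, which fell to 0.47 and was no longer called when reads on its pseudogenes were added, as described below. RPS27 stood at 101 and 92.2 CPM in number 1 and 374 and 203 CPM in number 2, a difference of 1.51 ± 0.27 (adjusted p = 5.86e-05). Its paralog RPS27L, a p53 target gene, went the other way, at 12.1 and 12.5 CPM in number 1 and 4.77 and 7.13 CPM in number 2 and -1.07 ± 0.42 (adjusted p = 0.0432). The RPS27L call was lost in DESeq2 (adjusted p = 0.135) and in edgeR with no filter on low counts (0.0541). In both paralogs, as in RPS28, both libraries of one number lay above both of the other.

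RPL15, of the large-subunit core, stood at 374 and 394 CPM in number 1 and 1105 and 744 CPM in number 2, and RPL37, a zinc-binding protein, at 783 and 715 CPM in number 1 and 414 and 275 CPM in number 2. The log2 differences were 1.24 ± 0.27 and -1.15 ± 0.26 (SE), with adjusted p of 0.000531 and 0.000937 in edgeR's test. RPS2, described above, differed by 1.15 ± 0.27 (adjusted p = 0.00132). Other genes called were RPL29, RPS29, RPS25, RPS14, RPL36, RPL35A, RPL4, RPL7, RPL24 and RPL30, higher in number 2, and RPS16 and RPS19, lower. RPL24 and RPL30 were not called with RLE scaling (adjusted p = 0.0538 and 0.0589 in edgeR's test) or with upper-quartile scaling (0.0705 and 0.0769), and RPL30 was not called with no filter on low counts (0.0527). Apart from RPL39L, RPS28 and RPS27 the called differences lay between -1.15 and 1.24 on the log2 scale.

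**Figure D3:**
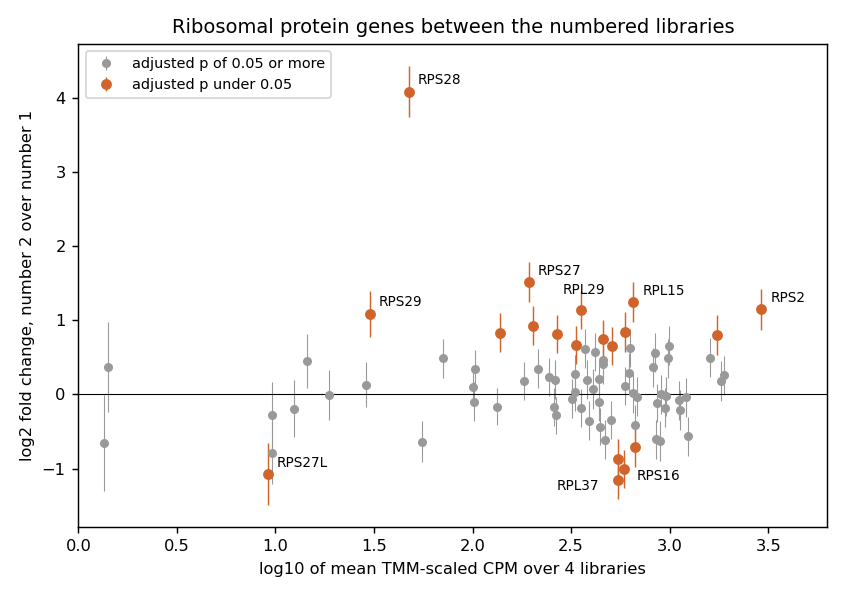
Log2 fold change of number 2 over number 1 (vertical axis, bars are SE) against the log10 of the mean scaled CPM over the 4 libraries (horizontal axis) for 78 ribosomal protein genes. RPL39L, with 1 read per library in number 2, is not drawn. RPS28 stands apart at 4.08 (0.47 with reads on its pseudogenes added), and the other called genes lie between -1.15 and 1.51.

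Ribosomal protein genes have many processed pseudogenes, copies of the spliced mRNA inserted elsewhere in the genome, and reads that match a gene and its copies equally can be counted on either or on neither. The count table lists 1587 ribosomal protein pseudogenes by name, of which 403 held at least 1 count. For most members this mattered little, as the median share of pseudogene reads in the sum of a gene and its copies was 0.378%. It exceeded 10% in 17 members and 50% in 8. These 8 were RPL17, RPL39, RPL21, RPS10, RPL41, RPS28, RPL36A and RPL26, among them 5 of the 13 members with a fitted fold change below 0.

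For RPS28 the copies changed the comparison between numbers. The gene held 80 and 136 reads in number 1 and 1964 and 1704 in number 2, whereas its 5 listed pseudogenes held 2162 and 2084 reads in number 1 and 1513 and 1169 in number 2. The sum of both was 2242 and 2220 reads in number 1 and 3477 and 2873 in number 2. On the summed reads the log2 difference between numbers was 0.47, with an adjusted p of 0.158 in edgeR's test, in place of 4.08. Of these summed reads, almost all were listed on the pseudogenes in number 1 and the larger part on the gene in number 2. Whether the reads on the pseudogenes came from RPS28 was not tested.

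Other members with low counts had most reads on their copies. RPL17 held between 25 and 38 reads a library and its 49 listed pseudogenes between 495 and 779. RPL21 held between 312 and 473 reads and its 133 listed pseudogenes between 1532 and 2120, and its log2 fold change with rapamycin was -0.25 on the gene and 0.02 on the sum. RPL39 held between 182 and 316 reads, with 1419 to 1720 on 19 listed pseudogenes. RPS10 held between 12 and 37 reads, and its log2 fold change was -0.26 on the gene and 1.09 on the sum with its 14 listed pseudogenes, with an adjusted p of 0.172 in edgeR's test. One of those copies, RPS10P7, was the only pseudogene of 91 tested that was called between treatments, at 3.10 and 4.55 CPM with rapamycin and 0.922 and 0.844 CPM in the controls. RPL26, the lowest member, moved from -0.84 to -0.24 when its copies were added. RPS10-NUDT3, RPL17-C18orf32 and RPL36A-HNRNPH2, the annotated readthrough genes that overlap RPS10, RPL17 and RPL36A, were listed at 0 in every library. How reads shared by overlapping genes were counted is not given, so these 0 counts do not show that the readthrough RNA was absent. Loss of reads from RPS10, RPL17 and RPL36A through this overlap was not tested. Adding the copies left 0 members called between treatments.

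**Figure D4:**
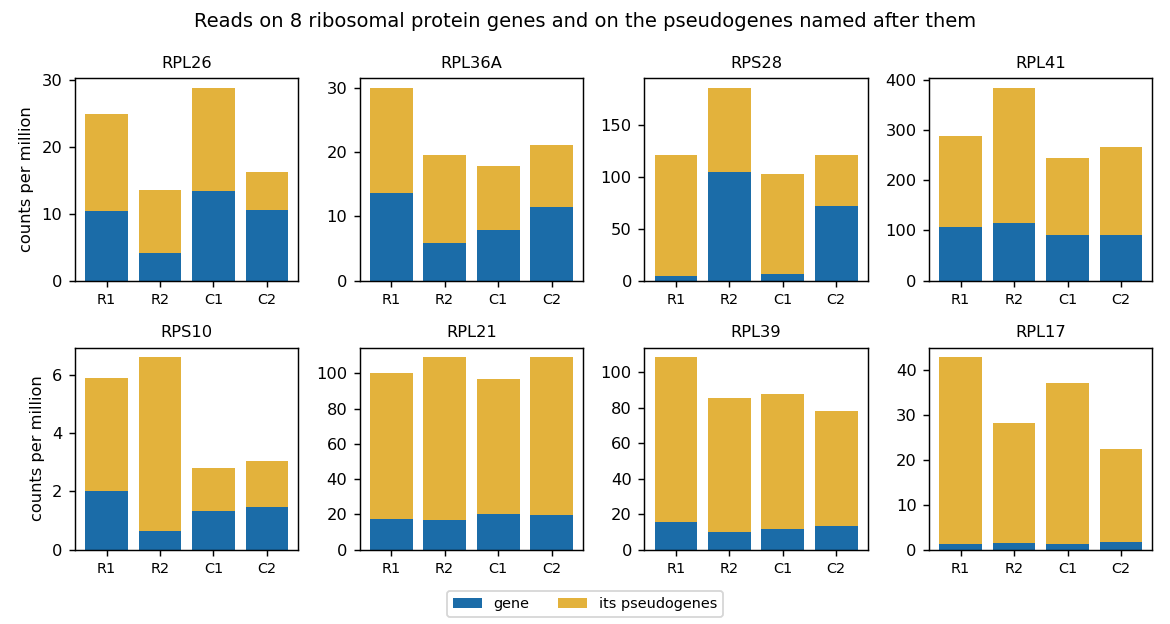
CPM of each library (vertical axes, separate scales from 0) for the 8 ribosomal protein genes with over 50% of summed reads on pseudogenes. R1 and R2 are the rapamycin libraries and C1 and C2 the controls, with reads on the gene below and reads on the pseudogenes named after it stacked above. In RPS28 the gene's part is small in R1 and C1 and large in R2 and C2.

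In the m6A data, few ribosomal protein transcripts carried a peak. A peak is a stretch where the pulled-down RNA exceeded the input, and its fold enrichment is the authors' ratio of pull-down to input. In HSC3, 6 members had a peak in the control list and 3 in the rapamycin list, where 20.9% and 20.8% of coding genes of at least 1 CPM had one. In CAL33, 1 member had a peak in the control list and 3 in the rapamycin list, where 19.5% and 17.1% of coding genes did. Over the 4 lists, 10 members (12.7%) had a peak anywhere, against 41.5% of coding genes, and 24 of 77 mitochondrial ribosomal protein genes of at least 1 CPM (31.2%). With 1 library pair for each line and treatment, the peak values have no replicates within a line, and no test between treatments was run on them. The depth of these libraries is unknown, so a missing peak may be one that was not detectable.

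RPL28 and RPL37 were the members with a peak in more than 1 list. RPL28, a large-subunit protein with a TOP start shown above, had a peak at chr19:55387508-55387717 (plus strand, hg38) in the HSC3 control list with a fold enrichment of 1850, higher than in 99.8% of that list. With rapamycin in HSC3 the peak ran over chr19:55387538-55387717 and had a fold enrichment of 43.7, at percentile 57.5 of its list. In CAL33 the RPL28 peak was listed only with rapamycin, at chr19:55387329-55387538 with a fold enrichment of 96.5. The HSC3 peaks shared 180 bases with each other, and the CAL33 peak shared 31 bases with the HSC3 control peak and 1 base with the other. The files class all 3 as exon. RPL28 mRNA stood at 768 and 722 CPM with rapamycin and 743 and 445 CPM in the controls.

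RPL37 (chromosome 5, minus strand) had a peak only in the HSC3 lists, both classed as 3′ UTR. The control peak lay at chr5:40825622-40825771 with a fold enrichment of 72.9 and the rapamycin peak at chr5:40827899-40828079 with 7.15. They were 2127 bases apart, and each was listed once, from 1 library pair. The rapamycin peak was at percentile 10.3 of its list. A site absent from a list may be one that was not detectable, and whether the peak moved was not tested. RPL37 mRNA stood at 783 and 414 CPM with rapamycin and 715 and 275 CPM in the controls.

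The other 8 members had a peak in a single list. The HSC3 control list held peaks on RPL27A at chr11:8689199-8689469 with a fold enrichment of 92.0, on RPL13 at chr16:89563113-89563323 with 20.8 and on RPL41 at chr12:56117502-56117767 with 14.4, all classed as 3′ UTR, and on RPS14 at chr5:150447574-150447753 with 61.7, classed as exon. The HSC3 rapamycin list held RPL14 at chr3:40465143-40465323, a 3′ UTR peak with 49.2. None of these 5 genes had a peak in CAL33.

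The CAL33 control list held a single member, RPS27L, at chr15:63153547-63153726 in the 3′ UTR with a fold enrichment of 647, higher than 98.3% of that list. The CAL33 rapamycin list held RPL9 at chr4:39454214-39454974, 240 exonic bases in 3 blocks with 83.1, and RPS29 at chr14:49577413-49577682 in the 3′ UTR with 5.45, beside RPL28. All 13 member peaks lay inside the RefSeq span of their gene. Ribosomal protein pseudogenes with at least 1 peak numbered between 4 and 7 a list. Of the 10 genes with a peak, RPL9 and RPS27L were among those with a lower RNA level with rapamycin in both pairs, and RPL28, RPL37, RPL13, RPL41 and RPS14 were above the control in both pairs.

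**Figure D5:**
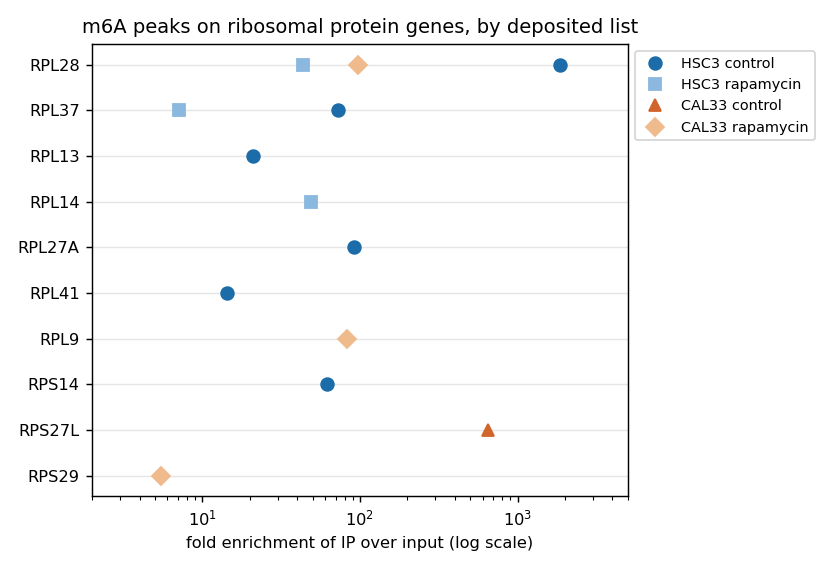
Authors' fold enrichment of m6A pull-down over input (horizontal axis, log scale) for each peak on a ribosomal protein gene (rows), with a separate symbol for each of the 4 deposited lists. The 13 peaks fall on 10 genes, and RPL28 in untreated HSC3 is the highest at 1850.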

How the data were processed

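The deposited table gives raw counts of reads on each gene, without scaling, and the authors also gave, for each pair of m6A libraries, a peak list with fold enrichment (a ratio), p-value and scores on a log10 scale for p and false discovery rate. The submitters' processing notes name cutadapt 2.5, HISAT2 2.1.0, featureCounts 1.6.3, HOMER 4.10.4 and hg38. The count table's own name points to HTSeq, so the program that assigned reads to genes and their pseudogenes is not settled, and the caller's settings and the use of strand are not given in the sources used here. Symbols were matched for 98.7% of identifiers. The test was that of edgeR 4.0.16 under R 4.3.3 (TMM, filterByExpr, robust quasi-likelihood test, Benjamini-Hochberg adjustment over all genes at 0.05), with treatment and replicate number in the model. The numbers were checked for pairing, and the number 2 minus number 1 difference correlated between treatments across genes, which are not independent (r = 0.907). The pairing also follows the membership rule and the numbering of the MeRIP-seq labels. SEs and intervals come from the same fit. Alternatives were DESeq2 1.42.0, no block, other scalings and filters, pseudogene counts added and each library left out. Tests were first tried on simulated data. Peaks were assigned by Ensembl identifier, and positions count from 1. Members, lists and the naming rule were chosen with earlier results of these data known. The rule named the genes with most and fewest counts, the 5 that differed most between numbers, those with peaks in at least 2 lists and members chosen by role. Some genes counted in the totals are not reported here by name or drawn by name.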

Additional observations from a re-analysis of the deposited data

Results flagged for a closer look

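The number of ribosomal protein genes with an m6A peak changed in opposite directions in the cell lines, by -3 in HSC3 (6 in control, 3 with rapamycin) and by 2 in CAL33 (1 in control, 3 with rapamycin). The share of coding genes of at least 1 CPM with a peak was 20.9% in control and 20.8% with rapamycin in HSC3. In CAL33 it was 19.5% and 17.1%. These member counts are small, and the difference between the lines was not tested, since each list comes from 1 pair of libraries.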

How the results depend on the processing

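The count of members called lower with rapamycin was 0 under all 8 alternatives that could be tested, and the count called higher was 0 under 7 of them. DESeq2 called 1, RPL3. With no replicate block, 0 members were called and the median log2 fold change of the members was 0.24, while the block itself rests on 1 residual degree of freedom. The median ranged from 0.18 to 0.29 (0.03 to 0.13 over all genes). With a library left out, only the complete pair was left, which gives a value with no test, from 0.04 to 0.40 for the median and from 0.09 to 0.45 for the log2 ratio of the summed level. Members called between numbers were 4 with no treatment term, against 20, and 18 to 22 under the other alternatives, with 12 higher and 10 lower under upper-quartile scaling. RPS27L was called under neither DESeq2 nor no filter on low counts, and RPL24 and RPL30 under neither RLE nor upper-quartile scaling. RPS28 was not called between numbers with pseudogenes added, an alternative chosen after seeing the data. Peak counts did not change with the peak rules tried. With a library left out, the direction depended on the pair left for the 33 members that moved in opposite directions in the pairs. In fits of all 4 libraries, directions with rapamycin reversed for some named genes, none of them called. With pseudogenes added these were RPL21 (0.024), RPL36A (0.318), RPL39 (0.216) and RPS10 (1.093). With upper-quartile scaling they were RPL36A (0.004) and RPL39 (0.044). RPL36A (0.003) also reversed with no replicate block, and RPS27A (-0.016) with no filter on low counts. For these genes the cause was not tested, beyond the added reads themselves.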
